A study of Sus scrofa with 75 samples.

Results

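The comparison of topsoil with control piglets at day 56 of age covers 13 small RNA libraries, 5 from piglets exposed to topsoil and 8 from unexposed control piglets, of the 39 miRNA libraries made at 3 ages and of 75 samples in the series. The libraries were chosen by the names of the columns of the count table, which give treatment, pig number and day. All were made from peripheral blood mononuclear cells (PBMC), the lymphocytes and monocytes that a density gradient separates from most red blood cells and granulocytes. The topsoil was offered during lactation only, so that at day 56 both groups had been weaned and were no longer exposed, and the control piglets received none. The same 13 pigs had been sampled at days 11 and 20, and each library is 1 pig. The question was whether a miRNA difference between the treatments was present after the exposure had ended.

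MicroRNAs are short RNAs that guide Argonaute proteins to messenger RNAs, which are then repressed. The target is chosen mainly by the seed, bases 2 to 8 of the mature miRNA, so that miRNAs with one seed form a family with overlapping targets. In blood, miR-150, miR-342 and the miR-181 family are typical of lymphocytes, miR-142 is found in all leukocytes, miR-223 marks myeloid cells, and miR-486, miR-451 and miR-144 are abundant in red blood cells and their precursors.

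The sample characteristics deposited with the libraries often did not match the column names. Of the 13 libraries, 9 had the same treatment in both, 4 had the same day and 3 had both. The names were followed here, so each value below rests on them.

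The number of reads on all entries of the table lay between 2570910 and 13678837 per library. After 1 entry was kept for each of the 457 mature names, the 8 control libraries held 1634831 to 10518896 reads and the 5 topsoil libraries 5174743 to 7455602. Control replicate 7 was by far the shallowest library, since the next control library held 7471418 reads. A read was found at day 56 for 302 mature names, and 209 passed the filter on low counts and were tested. Levels are given as scaled CPM, read counts divided by a library size that was adjusted by the upper quartile of the counts, times a constant shared by all libraries, so that the values of a library have no fixed sum. A single read was worth 0.0351 to 0.154 scaled CPM.

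The markers of mononuclear cells were present in all 13 libraries. miR-150 lay between 2789 and 5432 scaled CPM in control and between 3125 and 6722 in topsoil libraries. miR-142-5p had a median of 3092 in control and 3378 in topsoil libraries. miR-223 was lower, with medians of 32.9 and 42.7. Markers of platelets, endothelium and stroma differed in level. miR-145-5p and miR-143-5p had no read in any library, miR-145-3p had 5 reads in all, and miR-126-3p had a median of 0.481 in control and 0.576 in topsoil libraries. miR-199a-3p and miR-199b-3p, which have the same counts, had a median of 0 in control and 0.608 in topsoil libraries. Others were higher, with control medians of 30.2 for miR-143-3p and 7.03 for miR-126-5p. The list of platelets and vessels described below also holds miR-10a-5p and miR-10b, which are not restricted to these cells. Their control medians were 207 and 11.6.

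Red cell miR-486 had the most reads in 10 of the 13 libraries. In control replicate 4 miR-181a had more, and in control replicate 7 and topsoil replicate 5 let-7f-5p had more. It held 37.9%, 48.0%, 48.2%, 25.8% and 11.8% of the reads of topsoil replicates 1 to 5. In the control libraries its share ran from 18.5% over a median of 42.3% to 75.3%. Topsoil replicate 5 had the lowest share of all and 4 control libraries were above every topsoil library, but the groups overlapped. The mean share was 46.4% ± 21.5 (SD, n = 8) in control and 34.4% ± 15.6 (SD, n = 5) in topsoil libraries, a difference of -12.04 percentage points (two-sided exact permutation test over 1287 assignments, p = 0.295, adjusted over 4 measures p = 0.393). With a library left out this difference lay between -16.0 and -6.40 percentage points. The total reads, the reads of other miRNAs and the number of mature miRNAs with a read gave exact permutation p-values of 0.160, 0.959 and 0.169 (adjusted p = 0.339, 0.959 and 0.339). Topsoil libraries held 241.6 ± 23.4 mature miRNAs with a read (SD, n = 5) and control libraries 212.1 ± 40.04 (SD, n = 8). With all 13 libraries the other red cell miRNAs did not have the sign of miR-486. The log2 fold change of miR-451 was 0.32 ± 0.41 (SE) and that of miR-144 was 0.19 ± 1.06 (SE), against -1.24 ± 0.61 (SE) for miR-486. Without topsoil replicate 1 miR-451 was at -0.10 and miR-144 at -0.49. Without control replicate 6 the value of miR-486 was -0.73, and under scaling by total counts it was -0.49. Fewer red cells and less of a miRNA per cell cannot be told apart in such libraries. With miR-486 as a covariate, the log2 fold change of miR-191 was -0.23 where it is -0.80 without it, that of miR-143-3p -0.38 in place of -0.88, that of miR-182 1.34 in place of 0.34, and that of miR-181c 0.87 in place of 0.85, and 0 miRNAs were called.

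No miRNA was DE between topsoil and control at day 56. Of the 209 tested, 0 were called (0%) at a false discovery rate of 0.10 by the quasi-likelihood test of edgeR, and the smallest adjusted p was 0.924. DESeq2 and limma also called 0. At an unadjusted p under 0.05 the test of edgeR found 5 miRNAs (2.39%), where 10.45 are expected if no miRNA differs. DESeq2 found 12 and limma 15 at that limit. Of the 5, miR-181c, miR-30e-5p, miR-181d-5p and miR-424-3p had a higher fitted level in topsoil and miR-744 a lower one. Over all tested miRNAs 114 had a higher and 95 a lower fitted level in topsoil, with a median log2 fold change of 0.07. Scaling by total counts moved that median to 0.40 and left 168 miRNAs with a higher level, whereas scaling by the trimmed mean of M-values (TMM) gave 0.09.

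The absence of a call has to be read with the error. The median standard error of a log2 fold change was 0.50, and 0.29 over the 50 most abundant miRNAs. For 58 of the 209 miRNAs (27.8%) the 95% interval lay within a 2-fold change in either direction, and for 5 it lay within a 1.5-fold change. For the others the interval reached beyond a 2-fold change.

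**Figure D1:**
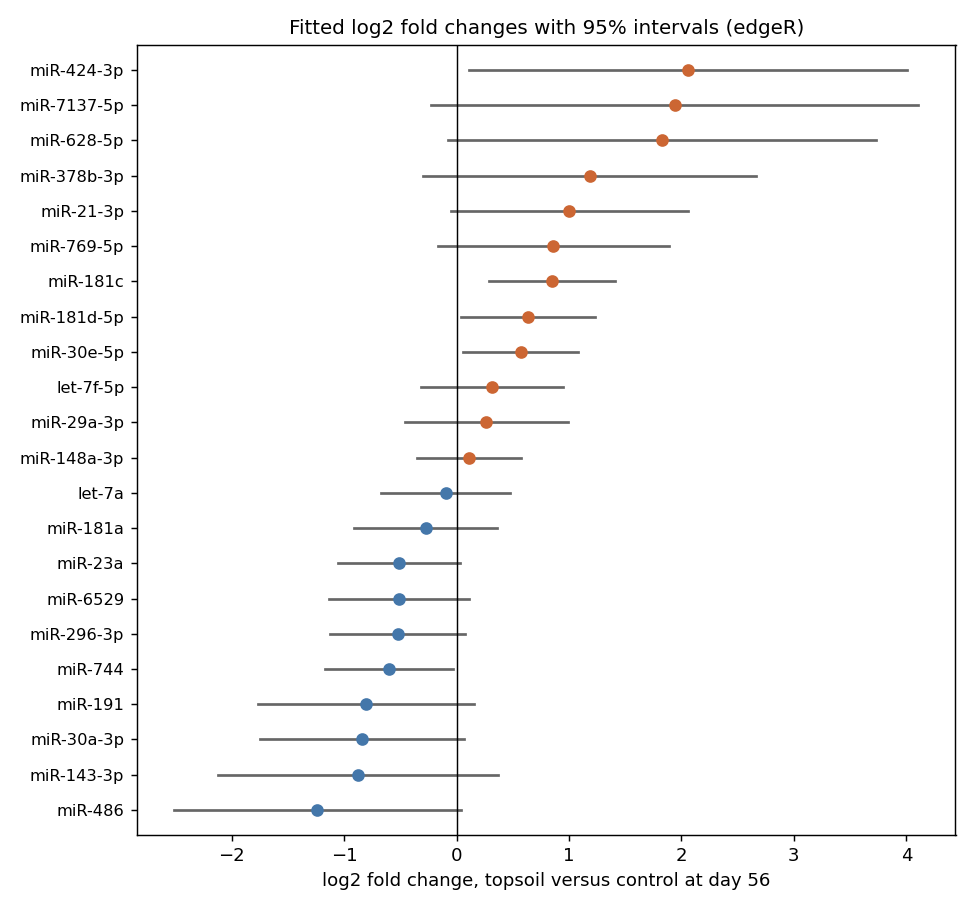
Fitted log2 fold changes (x axis, topsoil versus control at day 56, positive when higher in topsoil) of 22 miRNAs, those with the lowest p-values, groups that do not overlap, the highest abundance or a hairpin that the study names as a regulator, 1 line each (y axis). Points are the fitted values and lines the 95% intervals from edgeR, and those of miR-181c, miR-30e-5p, miR-181d-5p, miR-424-3p and miR-744 do not cross 0.

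miR-181c had the smallest p-value of all tested miRNAs. Its levels in topsoil replicates 1 to 5 were 66.7, 72.1, 68.6, 73.3 and 68.8 scaled CPM. In the control libraries the level ran from 21.3 over a median of 38.9 to 61.0. At this scaling every topsoil library was above every control library, and the topsoil libraries lay close together, with a mean of 69.9 ± 2.70 (SD, n = 5) against 38.3 ± 12.0 (SD, n = 8). It was counted from 5223 reads in control and 6029 in topsoil libraries. The log2 fold change was 0.85 ± 0.27 (SE), with a 95% interval from 0.29 to 1.41 (edgeR, adjusted p = 0.924). Groups that do not overlap were found for 2 of the 209 tested miRNAs (0.957%), miR-181c and miR-378b-3p. The groups of miR-181c overlapped under TMM and under scaling without miR-486, where control replicate 5 lay above the lowest topsoil library, and did not under scaling by total counts. Those of miR-378b-3p overlapped under all 3.

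Within the miR-181 family, miR-181a is the member known for setting the sensitivity of T cell receptor signalling during thymic development. The members of the family are shown because 2 of the 4 tested have an unadjusted p under 0.05. Over all miRNAs 5 of 209 (2.39%) have one, these 2 among them. The more abundant members, miR-181a and miR-181b, do not. The sequences are those of RefSeq for Sscrofa11.1, written 5′ to 3′ with the seed in capitals.
miR-181a: aACAUUCAacgcugucggugaguu
miR-181b: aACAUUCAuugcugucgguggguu
miR-181c: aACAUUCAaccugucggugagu
miR-181d-5p: aACAUUCAuuguugucgguggguu
All 4 have the seed ACAUUCA and differ after it. miR-181c (chr2:65280001-65280022) and miR-181d-5p (chr2:65279821-65279844) lie beside each other on the minus strand, outside annotated genes. The genes of miR-181a and miR-181b form 2 other pairs, on chromosome 1 in an intron of NR6A1 on its opposite strand and on chromosome 10.

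miR-181d-5p had levels of 83.4, 95.1, 169, 69.9 and 103 scaled CPM in topsoil replicates 1 to 5. The control libraries lay between 32.6 and 96.7, with a median of 71.0. Only topsoil replicates 3 and 5 were above the highest control library, so the groups overlapped. The log2 fold change was 0.64 ± 0.28 (SE), with an interval from 0.04 to 1.23 (edgeR, adjusted p = 0.924). It was 0.37 without topsoil replicate 3 and 1.02 under scaling by total counts. The members from the other loci gave values within their error. miR-181a, which in topsoil libraries had a lower mean than let-7f-5p, had a median of 72796 in control and 62847 in topsoil libraries and a log2 fold change of -0.27 ± 0.30 (SE), which was 0.09 under scaling by total counts and -0.15 without control replicate 1. miR-181b had a log2 fold change of 0.05 ± 0.28 (SE), a value near 0 whose sign turned when single libraries were left out. Since miR-181c and miR-181d-5p were counted at a far lower level than miR-181a, they add little to the summed reads of the seed.

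At the earlier ages miR-181c did not stand higher in the topsoil pigs. Its mean at day 11 was 39.5 ± 19.0 scaled CPM (SD, n = 5) in topsoil and 51.0 ± 24.01 (SD, n = 8) in control libraries. At day 20 the means were 37.2 ± 12.2 (SD, n = 5) and 54.5 ± 20.1 (SD, n = 8). The fitted log2 fold changes were -0.45 ± 0.49 (SE) at day 11 and -0.36 ± 0.38 (SE) at day 20. The difference at day 56 exceeded the mean of the earlier differences by 1.40 ± 0.46 (SE) on the log2 scale, in a model of edgeR with pig, age and RNA quality (adjusted p = 0.407). Under scaling by total counts the excess was 2.44. That total includes miR-486, with topsoil means of 2188040 scaled CPM at day 20 and 129143 at day 56. Its control means were 1309850 and 283992. The value of 2.44 therefore does not reflect miR-181c alone. miR-181d-5p gave 0.79 ± 0.41 (SE) in the same contrast at the upper-quartile scaling (edgeR, adjusted p = 0.551). Both miRNAs were chosen by their p-values at day 56. The contrast holds those same day 56 values, so it is not separate support.

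**Figure D2:**
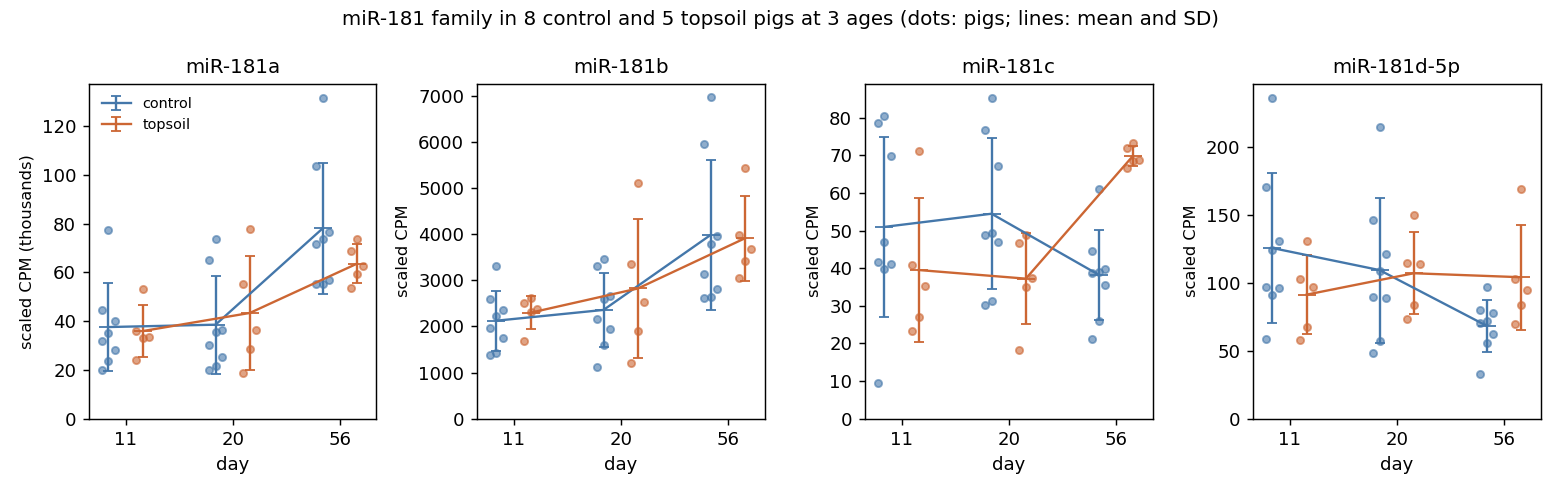
Scaled CPM (y axes, each with its own range) of the 4 miR-181 family members at days 11, 20 and 56 (x axes) in control (blue) and topsoil (orange) pigs. Dots are single pigs and lines join the means with their SD. At day 56 the topsoil values of miR-181c lie between 66.7 and 73.3, above the highest control value of 61.0 at this scaling.

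The test of whether the treatment difference at day 56 departed from that at days 11 and 20 called 0 of 209 miRNAs (0%) with edgeR, with a smallest adjusted p of 0.407. At an unadjusted p under 0.05 it found 17 (8.13%). DESeq2 called 4 in this contrast, miR-1306-5p, miR-181c, miR-504 and miR-532-3p, with 22 at an unadjusted p under 0.05, and edgeR without the pig as a block called 1, miR-424-3p. These are named because the counts are small, after their values were seen. miR-424-3p had the largest contrast of the miRNAs described here, 7.77 ± 2.25 (SE, edgeR, adjusted p = 0.407). It had no read in any of the 5 topsoil libraries at day 11 or at day 20, so this fitted size depends on the prior count and is no measured fold.

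The miR-30 family has a common 5′ seed, and its 5p arms are abundant in many tissues. miR-30e-5p, which is made from an intron of NFYC, had levels of 506, 413, 352, 626 and 659 scaled CPM in topsoil replicates 1 to 5. The control libraries ran from 181.0 over a median of 341.7 to 500.0. Topsoil replicates 1, 4 and 5 were above all control libraries and the other 2 were among them. Its log2 fold change was 0.57 ± 0.24 (SE), with an interval from 0.06 to 1.08 (edgeR, adjusted p = 0.924), and 1.00 under scaling by total counts. The 5p members are shown to compare the differences with the sequences.
miR-30a-5p: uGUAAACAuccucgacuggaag
miR-30b-5p: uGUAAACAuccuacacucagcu
miR-30c-5p: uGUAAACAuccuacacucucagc
miR-30d: uGUAAACAuccccgacuggaagcu
miR-30e-5p: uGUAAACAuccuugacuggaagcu
The log2 fold changes in the same order were -0.43, 0.39, -0.21, 0.24 and 0.57, so that miRNAs with the seed GUAAACA had both signs. Scaling by total counts left 1 of the 5 with a lower level. The most abundant, miR-30d, had a standard error of 0.24, about as large as its difference, and was at 0.09 without topsoil replicate 5. Without 1 library the others moved as well, miR-30a-5p to -0.24 (control replicate 1), miR-30b-5p to 0.18 (topsoil replicate 4) and miR-30c-5p to -0.07 (topsoil replicate 3). Over all 10 tested arms of the family 5 had a higher and 5 a lower level, with a median of -0.07 (7 higher under scaling by total counts, median 0.44). Both arms of 1 hairpin can differ in sign, and miR-30e-3p had -0.52 (-0.27 without control replicate 6). Over the 37 hairpins with both arms tested, 22 had the same sign on both.

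miR-744 was the only miRNA at an unadjusted p under 0.05 with a lower level in topsoil. It is encoded in an intron of MAP2K4, a kinase of the stress-activated pathway. Topsoil replicates 1 to 5 had 39.1, 58.3, 57.4, 31.5 and 50.0 scaled CPM, and the control libraries ran from 43.3 over a median of 76.4 to 84.4. Control replicates 7 and 8 lay among the topsoil libraries and the other 6 above them. The log2 fold change was -0.60 ± 0.27 (SE, edgeR, adjusted p = 0.924), and -0.18 under scaling by total counts. At day 20 it was 0.26 ± 0.37 (SE). Its mean at day 11 was lower in topsoil, as at day 56, with 41.1 ± 11.7 scaled CPM (SD, n = 5) against 57.1 ± 19.2 (SD, n = 8) in control libraries.

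miR-424-3p and miR-628-5p had large fitted changes on few reads. The first was counted 67 times in the control and 180 times in the topsoil libraries. Its levels were 1.29, 4.00, 1.44, 2.76 and 1.41 scaled CPM in topsoil replicates 1 to 5 and at most 1.51 in the control libraries, of which 2 had no read. Control replicate 8 lay above 3 topsoil libraries. The log2 fold change was 2.06 ± 0.93 (SE), with an interval from 0.11 to 4.00 (edgeR, adjusted p = 0.924). miR-628-5p, from an intron of CCPG1, was counted 85 and 148 times and gave 1.83 ± 0.91 (SE). miR-7137-5p was counted 41 and 74 times, and its interval ran from -0.23 to 4.11. At such depth a 2-fold difference was not detectable.

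**Figure D3:**
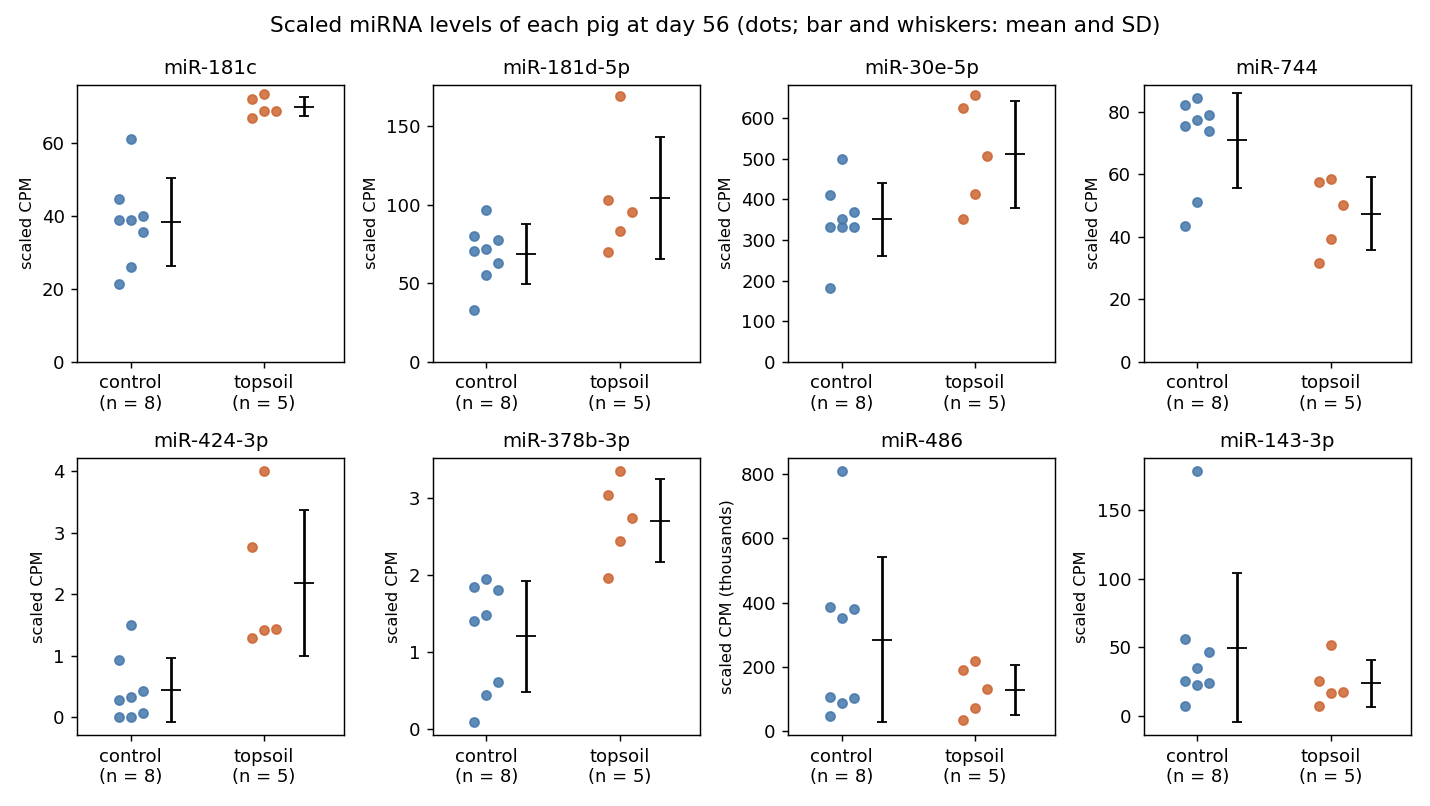
Scaled CPM at day 56 (y axes, linear, each with its own range) of 8 miRNAs in 8 control (blue) and 5 topsoil (orange) pigs (x axes), with 1 dot a pig and the mean with SD beside the dots. At this scaling the groups do not overlap for miR-181c and, by a narrow margin, for miR-378b-3p, and they overlap for the other 6.

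miR-378b-3p was the other miRNA whose groups do not overlap. It lies in an intron of RGS3 on the opposite strand. Its levels were 2.44, 1.97, 2.74, 3.04 and 3.35 scaled CPM in topsoil replicates 1 to 5 and ran from 0.0883 over a median of 1.45 to 1.96 in the control libraries. The lowest topsoil and the highest control library differed by less than the value of 1 read. It was counted from 183 and 237 reads, and the log2 fold change was 1.18 ± 0.71 (SE, edgeR, adjusted p = 0.924).

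miR-21 is induced in activated leukocytes. The passenger arm miR-21-3p had 32.0, 72.8, 36.2, 27.4 and 36.1 scaled CPM in topsoil replicates 1 to 5, and 3.01 over a median of 15.2 to 41.7 in control libraries. Its log2 fold change was 1.00 ± 0.50 (SE, edgeR, adjusted p = 0.924). The far more abundant guide arm, miR-21-5p, had 0.44 ± 0.27 (SE), 0.26 without topsoil replicate 5 and 0.78 under scaling by total counts. miR-23a had the opposite sign, with 35.5, 41.9, 35.8, 28.6 and 47.0 in topsoil replicates 1 to 5 and a control range of 37.6 to 67.1, a log2 fold change of -0.51 ± 0.26 (SE). Its gene (chr2:65308158-65308178) is near that of miR-181c, on the plus strand, together with miR-27a and miR-24. Of the remaining miRNAs among the 15 smallest p-values, miR-30a-3p (-0.84), miR-296-3p (-0.53), miR-191 (-0.80) and miR-6529 (-0.51) had lower and miR-769-5p (0.86) higher fitted levels in topsoil. Scaling by total counts gave -0.12 for miR-23a, -0.31 for miR-30a-3p, -0.11 for miR-296-3p, -0.08 for miR-191 and -0.20 for miR-6529, and miR-769-5p was 0.54 without topsoil replicate 1. miR-191 was -0.47 without control replicate 6, -0.52 without control replicate 1 and -0.42 with limma. These sequences are those of the other leading miRNAs that RefSeq holds.
miR-744: uGCGGGGCuagggcuaacagca
miR-486: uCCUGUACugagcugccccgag
miR-23a: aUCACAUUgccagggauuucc
miR-30a-3p: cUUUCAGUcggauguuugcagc
miR-296-3p: aGGGUUGGgcggaggcuuucc
miR-191: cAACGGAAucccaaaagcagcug
miR-628-5p: aUGCUGACauauuuacuagagg
miR-7137-5p: cGGGGGAAcucccagaccagc
miR-769-5p: uGAGACCUcuggguucugagc
miR-378b-3p: aCUGGACUuggagucagaagu
No 2 of these have one seed, and none has that of the miR-181 or the miR-30 5p family.

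By the mean over the 13 libraries, the most abundant miRNAs after miR-486 and miR-181a were let-7f-5p, let-7a and miR-191. let-7f-5p had a mean of 67226 ± 22102 scaled CPM (SD, n = 5) in topsoil and 53543 ± 14497 (SD, n = 8) in control libraries, and a log2 fold change of 0.32 ± 0.30 (SE). It was 0.14 without topsoil replicate 5, 0.50 without topsoil replicate 3, 0.12 with miR-486 as a covariate and 0.67 under scaling by total counts. let-7a had -0.10 ± 0.27 (SE), 0.33 under scaling by total counts and 0.01 without control replicate 2. miR-191, which is made from an intron of DALRD3, had 8936 ± 2371 (SD, n = 5) in topsoil and 14592 ± 10081 (SD, n = 8) in control libraries. Its control libraries spread from 2148 to 30313 and enclosed all topsoil libraries.

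Of the 21 miRNAs that the study lists for the treatment by age interaction, all 21 were tested, 0 were called at day 56 and 13 had a higher level in topsoil, with a median log2 fold change of 0.31 beside 0.07 over all miRNAs. Its names miR-199a-3p and miR-199b-3p have the same counts, and taken once they leave 12 of 20 higher, with a median of 0.29. That list was chosen on these libraries and is not independent evidence of its direction. The study called its members in a test over 3 ages, so a difference at day 56 alone is an unlike measure. The edgeR contrast of day 56 with the earlier ages, which is also not the model of the study, called 0 of 209 miRNAs. miR-181c was the 1 member of the list with an unadjusted p under 0.05 at day 56. miR-143-3p, a miRNA of smooth muscle and fibroblasts, was measured at 51.8, 7.21, 25.2, 17.3 and 16.9 scaled CPM in topsoil replicates 1 to 5, and from 7.49 over a median of 30.2 to 178 in control libraries. The highest control value was that of replicate 6, which also had the largest share of miR-486. Its log2 fold change was -0.88 ± 0.59 (SE), with an interval from -2.12 to 0.36. Without control replicate 6 it was -0.03, without topsoil replicate 2 it was -0.48, and without topsoil replicate 1 it was -1.39. Under scaling by total counts it was -0.30. With sex and parity in the model it was -1.64, with the smallest p of all tested miRNAs in that setting (edgeR, adjusted p = 0.948). miR-29a-3p had 0.26 ± 0.34 (SE), with values from 0.13 without topsoil replicate 3 to 0.49 without control replicate 7, and 0.46 with limma. Of miR-148a, the study discusses the 5p arm, which had 0.46 ± 0.37 (SE), with an interval from -0.31 to 1.23, and 0.29 without control replicate 6. The more abundant arm, miR-148a-3p, had 0.11 ± 0.22 (SE), with an interval from -0.35 to 0.57, and 0.40 under scaling by total counts. It ran from 0.04 without topsoil replicate 4 to 0.20 without topsoil replicate 3.

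Among the lists by cell type, 4 of 6 lymphocyte miRNAs had a higher level in topsoil, with a median log2 fold change of 0.07 and 2 at an unadjusted p under 0.05, beside 5 of 209 (2.39%) over all miRNAs. These 2 are miR-181c and miR-181d-5p, described above for that p-value. miR-150 had 0.10 ± 0.25 (SE) and -0.08 without topsoil replicate 3, and miR-342 had -0.66 ± 0.42 (SE) and -0.28 without control replicate 6. The list of leukocyte and myeloid miRNAs had 2 of 3 higher, with a median of 0.28, of which miR-142-3p had 0.34 (0.22 without control replicate 6) and miR-142-5p -0.02. The sign of miR-142-5p turned under TMM, scaling by total counts and scaling without miR-486. Of 7 miRNAs induced by innate immune signalling 3 had a higher level, with a median of -0.03. The largest value among them was that of miR-155-5p, 1.47 ± 0.96 (SE), on 111 control and 135 topsoil reads. The red cell list had 2 of 3 higher, with a median of 0.19. Its summed level followed miR-486, with 129338 ± 77188 scaled CPM (SD, n = 5) in topsoil and 284156 ± 256431 (SD, n = 8) in control libraries. The list of platelets and vessels had 4 of 7 names higher, with a median of 0.02. With miR-199a-3p and miR-199b-3p, which have the same counts, taken once, it had 3 of 6 higher and a median of -0.18, and miR-10a-5p was its most abundant member, at -0.37 ± 0.37 (SE), -0.07 without control replicate 6 and -0.61 without topsoil replicate 3. None of these lists had a member called. Under scaling by total counts, which moved the median of all miRNAs to 0.40, the median of each of the 18 lists was above 0. Under TMM the median turned in 3 lists, to 0.03 for innate immunity, to 0.05 for miR-99, miR-100 and miR-125 and, over names, to -0.0065 for platelets and vessels. Scaling without miR-486 turned the latter 2, to 0.01 and -0.10.

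The families followed the same pattern of small medians. The let-7 family had 7 of 10 members higher in topsoil, with a median of 0.16 and the smallest p for miR-98 (-0.41 ± 0.30, SE), which ran from -0.68 without topsoil replicate 5 to -0.25 without control replicate 6. The miR-17-92 cluster and its paralogues had 6 of 11 higher and a median of 0.01. miR-92a and miR-92b-3p had -0.41 each (miR-92a -0.25 without control replicate 6), and all 4 tested miRNAs with their seed AUUGCAC had a lower level, which turned to a higher one in all 4 under scaling by total counts. Of these, miR-363 moved from -0.08 to 0.32 and miR-32 from -0.01 to 1.01 without control replicate 7. The 3 tested members of the miR-15 and miR-16 family with the seed AGCAGCA were all higher (2 of 3 under TMM), with a median of 0.03, and miR-16 had 0.15 ± 0.20 (SE), and 0.07 without control replicate 6. miR-15a ran from -0.14 without control replicate 1 to 0.82 without control replicate 7. miR-15b ran from -0.12 without topsoil replicate 1 to 0.23 without topsoil replicate 3. The list of this family also holds miR-424-3p, the other arm of a hairpin, and with it had 4 of 4 higher and a median of 0.09. The families of miR-26 and miR-29 had 3 of 6 higher, with a median of 0.04, among them miR-26a at -0.22 and miR-26b-3p at 0.54. miR-26b-3p was at 0.16 without control replicate 6 and 0.87 without control replicate 7, and miR-26a at -0.08 without topsoil replicate 3. The miR-183 cluster had 2 of 2 higher, with miR-182 at 0.34 ± 0.56 (SE) and miR-183 at 0.15 ± 0.94 (SE). Topsoil replicate 3 had the highest levels of both among the 13 libraries of day 56, and without it the values were -0.54 and -1.64. That of miR-183 was also below 0 without control replicate 2, 4 or 8, with sex and parity in the model (-1.49) and with limma (-0.11). Of the clusters of miR-23, miR-27 and miR-24, 3 of 7 were higher, with a median of -0.27 that was 0.03 under scaling by total counts, and miR-27b-3p was at -0.27, and at -0.08 without control replicate 7.

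The miR-99, miR-100 and miR-125 family had 3 of 6 higher, with a median of -0.01, and miR-100 had -1.12 ± 0.88 (SE) while miR-125a had -0.33. Without control replicate 6 miR-100 was at -0.36. miR-125a ran from -0.57 without topsoil replicate 1 to -0.09 without topsoil replicate 4. Of miR-221 and miR-222, 1 of 3 arms was higher, with miR-222 at 0.07 (-0.32 without topsoil replicate 5) and miR-221-5p at -0.57 (-0.29 without topsoil replicate 4, -0.87 without control replicate 6). The cluster on the X chromosome that holds miR-532 had 3 of 4 higher, with a median of 0.20, miR-532-5p at 0.04 and miR-660 at 0.35. Without topsoil replicate 5 miR-660 was at 0.12, and with miR-486 as a covariate at 0.09. The sign of miR-532-5p turned when single libraries were left out, down to -0.07 without control replicate 4. The imprinted DLK1-DIO3 cluster was close to silent, since 6 of its 22 names had a read at day 56 and 1, miR-127, passed the filter (1.45 ± 1.02, SE). Of the miRNAs restricted to other tissues 1 of 6 was higher, with a median of -0.16 that was 0.42 under scaling by total counts. This list included miR-192 at -0.14 and miR-375, an islet miRNA, at 1.94 ± 1.19 (SE) on 31 control and 51 topsoil reads. Of these 51, topsoil replicate 1 held 34, and without it miR-375 was at 0.83, while without control replicate 3 it was at 2.96. miR-192 was at 0.21 without control replicate 7. The 3 names of miR-9 in it have the same counts, as do 8 tested names in 3 sets in all, so they are 1 measurement, and taken once they leave 1 of 4 higher, with a median of -0.15. No list but those of lymphocytes, miR-30, miR-15 and miR-16 (miR-424-3p alone) and the study's own had a member at an unadjusted p under 0.05.

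At day 56, 18 mature names had reads in topsoil libraries only and 8 in control libraries only, all outside the tested set. The largest of these counts was 22 reads, and no such name was read in more than 3 libraries.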

How the data were processed

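PBMC small RNA was sequenced. The authors trimmed reads with Trim Galore 0.4.5, per the submitters' processing notes, and mapped them to Sscrofa11.1 with miRDeep2, and they deposited counts per mature miRNA and precursor, not normalized. PCR reads carry no molecular identifiers, so errors at low depth exceed counting error. The entry with the largest total was kept for each mature name. The test covered the 209 miRNAs read in at least 17 of 39 libraries and averaging over 2 reads, in R 4.3.3 with edgeR 4.0.16, using upper-quartile (75%) factors, RNA quality (RQI) as covariate, a prior count of 0.125 and Benjamini-Hochberg adjustment. The study states that the miRNA libraries were sequenced in a single lane, so no lane term was fitted. Standard errors were taken from the fold change and its F statistic. Library measures were compared with exact permutation tests. The code was tested on simulated data. Alternatives were TMM, total counts, scaling without miR-486, DESeq2 1.42.0, limma 3.58.1, other filters, covariates and groups, and each replicate left out. Positions and sequences come from RefSeq (369 of 457 names). Named miRNAs are the 15 with the smallest p, those with groups that do not overlap, the 5 most abundant, 1 arm of each of 3 hairpins the study names as regulators and 2 of each of 18 lists. Members and lists were chosen with earlier results of these data known; miR-30 and miR-181 family members, markers and other miRNAs outside the rule were named after their values were seen. The mRNA table was not used here.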

Additional observations from a re-analysis of the deposited data

Results flagged for a closer look

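In 52 groups of values at day 56, the 4 library measures and the leading miRNAs in each treatment, 6 held a library whose gap to its nearest neighbour was a large part of the range. About 2.6 would be expected for independent values from a normal distribution. These groups come from the same libraries, and every flagged CPM was the highest of its group. The 6 against 2.6 is therefore no test of an excess. Control replicate 7 had 1634831 reads on mature miRNAs, against 7471418 in the next control library. Control replicate 6 had the highest level of both miR-486 (808880 scaled CPM, against 387440 in the next) and miR-143-3p (178.31, against 56.263). Control replicate 1 had 72.25 scaled CPM of miR-30a-3p, against 37.146 in the next control library. Topsoil replicate 2 had 13006 scaled CPM of miR-191, against 8913.2 in the next, and 72.806 of miR-21-3p, against 36.205.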

How the results depend on the processing

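No setting called a miRNA at day 56, with a smallest adjusted p between 0.314 and 0.969 over 14 alternatives of tool, scaling, filter, covariates or groups and between 0.304 and 0.992 when 1 library was left out, and 0 were called at a rate of 0.05. The number at an unadjusted p under 0.05, 5 as reported, was 7 under TMM, 6 under total counts or without RQI, 5 with every entry, 3 under scaling without miR-486, with sex and parity or with the miR-486 level as covariate, 1 with all 39 libraries in the fit, 12 with DESeq2, 15 with limma, 14 with the groups of the sample characteristics, and 17 both without a filter and with a filter over the 13 libraries. Of these 17, 16 were higher in topsoil without a filter and 3 with the filter over the 13 libraries, against 4 of 5 as reported. With the miR-486 level as covariate miR-182 had the smallest p (log2 fold change 1.34, adjusted p 0.314). Leaving out a library gave 2 to 15, with 15 without control replicate 7, 11 without control replicate 4, 9 without control replicate 8, 3 without control replicate 2 or 5 or topsoil replicate 5, and 2 without topsoil replicate 4. Without control replicate 7, 4 or 8, 6 of the 15, 5 of the 11 and 6 of the 9 were higher in topsoil. With DESeq2 6 of the 12 were higher, and with limma 13 of the 15. The cause was not tested. The log2 fold change of miR-181c stayed between 0.68 and 1.18 in the 13 settings that keep the named groups (adjusted p 0.389 to 0.969) and between 0.77 and 0.98 with a library left out. The characteristics give day 56 to 12 libraries, 5 as topsoil and 7 as control, which by column name are all topsoil, 8 of them from earlier days, and of which 4 are among the 13 compared here. By column name these 12 libraries are from 5 pigs, so several share an animal and they are not 12 independent replicates. In these unlike groups miR-181c was 0.18.

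Pig numbers name different animals in the treatments, so no pairing is given. With the number as a replicate block, 0 were called and 12 had an unadjusted p under 0.05. Correlations of same-numbered libraries ran from -0.205 to 0.259, and no topsoil library correlated best with the control library of its own number. The groups that do not overlap numbered 1 under TMM (miR-23a), 1 under total counts (miR-181c) and 0 under scaling without miR-486, and 2 to 4 with a library left out, 4 being without control replicate 8. The contrast of day 56 with the earlier ages called 0 under TMM, total counts, no RQI and each pig left out, 1 without the replicate block and 4 with DESeq2. The share of miR-486 stayed lower in topsoil, by differences between -16.0 and -6.40 percentage points with a library left out and of -11.7 over every entry.

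Leaving out 1 library turned or moved by over 1.5 times the value of 31 of 45 named miRNAs, 20 of them without control replicate 6. Of the 45, 22 kept their sign throughout, and none that turned was called. Under total counts the turned log2 fold changes were let-7a 0.33, miR-10a-5p 0.22, miR-125a 0.075, miR-142-5p 0.14, miR-181a 0.090, miR-192 0.050, miR-26a 0.19, miR-92a 0.093, miR-92b-3p 0.061 and miR-98 0.10. miR-142-5p turned under TMM (0.0080), scaling without miR-486 (0.0086), limma (0.10), no RQI (0.014), sex and parity (0.048) and every entry (0.073), and let-7a under every entry (0.013). Further turns were miR-192 0.078 and miR-222 -0.014 with limma, miR-148a-3p -0.066, miR-16 -0.032, miR-222 -0.15 and miR-532-5p -0.13 with the filter over 13 libraries, miR-532-5p -0.0056 with sex and parity, and miR-10a-5p 0.19, miR-222 -0.18 and miR-532-5p -0.032 with the miR-486 level. With the replicate block let-7a was 0.061, miR-100 0.17, miR-142-5p 0.54, miR-182 -0.40 and miR-375 -0.88. In the 12 libraries grouped by the characteristics, which are no regrouping of the 13, let-7f-5p was -0.14, miR-127 -0.24, miR-142-5p 1.10, miR-181a 0.71, miR-182 -0.84, miR-26a 0.025, miR-296-3p 0.026, miR-375 -4.95, miR-7137-5p -0.35, miR-744 0.14, miR-769-5p -0.088, miR-92a 0.062 and miR-92b-3p 0.95. With a library left out the ranges that cross 0 among the 45 were let-7a -0.20 to 0.011, miR-142-5p -0.13 to 0.26, miR-182 -0.54 to 0.86, miR-192 -0.26 to 0.21, miR-222 -0.32 to 0.27 and miR-532-5p -0.070 to 0.15. Of those outside the 45 with a value in the text, the ranges that cross 0 were miR-183 -1.64 to 1.02, miR-181b -0.094 to 0.16, miR-144 -0.49 to 0.53, miR-150 -0.077 to 0.22, miR-451 -0.096 to 0.51, miR-15a -0.14 to 0.82, miR-15b -0.12 to 0.23, miR-363 -0.28 to 0.32 and miR-32 -0.76 to 1.01. With names of the same counts taken once, chosen after seeing the data, the median log2 fold change of the platelet and vascular list turned from 0.019 to -0.18.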
